A study of Homo sapiens with 24 samples.

Results

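Untreated cells of 2 diffuse large B-cell lymphoma lines were set against each other: TMD8, a line of the activated B-cell type (ABC-DLBCL), and DoHH2, a line of the germinal center B-cell type (GCB-DLBCL). All arrays of vehicle-treated cells were taken, that is 12 of the 24 arrays of the series: 6 of TMD8 cells and 6 of DoHH2 cells. In each line, 3 arrays were labelled as the DMSO controls of the histone deacetylase (HDAC) inhibitor ITF-A and 3 as the DMSO controls of the inhibitor ITF-B, from 3 numbered experiments. Cells had been kept for 8 hours in DMSO, the solvent, as the controls of 100 nM ITF-A or 200 nM ITF-B, and the remaining 12 arrays were of cells given the inhibitors. Arrays of both lines lay on each of 2 BeadChips, and the chip was a term of the model. Total RNA was hybridized to Illumina HumanHT-12 v4 BeadChips, which carry 47231 probes in the table used here. Both are established human lines, each type is represented by 1 line, and the labels give no genotype, so that line and lymphoma type cannot be told apart. The labels do not say whether the ITF-A and ITF-B controls of an experiment came from separate cultures, so that p-values measure the spread between arrays, which may in part be technical.

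Diffuse large B-cell lymphoma is divided by the stage of B-cell development that its gene expression resembles. Germinal center B cells run a program held by the repressor BCL6, while activated B-cell type tumors resemble cells on their way out of the germinal center to the plasma cell, and often depend on signaling from the B-cell receptor and Toll-like receptors through MYD88 to the transcription factor NF-κB and on STAT3. The levels below are log2 intensities after normalization, of which the median over all probes was 6.16 and the lowest 5.65. Neither detection p-values nor control probes were used, so that a gene near this floor is described as near the floor and not as silent, and differences against such values are compressed. Where 3 values are given for a line, they are the lowest, the median and the highest of its 6 arrays. Differences are TMD8 minus DoHH2 with their SE from 1 limma model, and "higher" and "lower" are used for an adjusted p under 0.05.

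Of the 47231 probes, 15010 (31.8%) differed between the lines, 7067 (15%) higher and 7943 (16.8%) lower in TMD8 cells. Differences of at least 2-fold with an adjusted p under 0.05 were met by 1179 higher (2.5%) and 1012 lower probes (2.14%). Read as 20046 genes, each by its brightest probe, 8768 (43.7%) differed, and 4240 (21.2%) were higher and 4528 (22.6%) were lower. These shares include many genes near the floor. Among the 9556 genes with a mean above 6.5, 36.9% were higher and 39.6% lower. Gene lists below that consist mainly of such genes are to be read against these larger shares, and a list share near or below them is no excess. At least 2-fold, 834 genes (4.16%) were higher and 710 (3.54%) lower, and the 6 and 6 arrays did not overlap for 6866 genes (34.3%). The median difference over all genes was -0.0042, and the median SE of a probe was 0.055. Arrays of TMD8 cells correlated with each other at 0.9945 to 0.9961 and those of DoHH2 cells at 0.9942 to 0.9961, against 0.9414 to 0.9427 between the lines. When arrays were scaled to a common median in place of quantile normalization, 5432 probes were higher and 9904 lower, a share of higher calls of 35.4% against 47.1%, and genes with a mean above 6.5 shifted to a median of -0.20, so that differences of this size are read with that scaling beside them.

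The DMSO controls of ITF-A and of ITF-B gave nearly the same picture. In the ITF-A controls 6048 probes (12.8%) were higher and 6877 (14.6%) lower in TMD8 cells, and in the ITF-B controls 5877 (12.4%) were higher and 6643 (14.1%) lower. Of the 10672 probes called in both, which are 82.6% of the calls in the ITF-A controls and 85.2% of those in the ITF-B controls, 10666 had the same direction. Set against the ITF-B controls, the ITF-A controls had 16 probes higher (0.0339%) and 1 lower (0.00212%) in TMD8 cells, and 1 higher (0.00212%) and none lower in DoHH2 cells. No probe was called in limma for a line difference that itself differed between the sets, while 2711 (5.74%) had an unadjusted p under 0.05.

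At the top of the list stood genes that 1 line showed near the floor. CT45A3, a cancer-testis antigen of the X chromosome, measured 13.23, 13.30 and 13.42 in TMD8 cells, against 5.86, 5.97 and 6.13 in DoHH2 cells, a difference of 7.33 ± 0.055. Its relatives CT45A1 and CT45A5 followed at 6.12 ± 0.052 and 5.19 ± 0.056, but these copies are nearly identical and their probes may not tell them apart. GZMB, the granule protease granzyme B of cytotoxic and some activated B cells, measured 12.82, 12.96 and 13.11 in TMD8 cells, against 5.70, 5.76 and 5.88 in DoHH2 cells (7.20 ± 0.051, 147-fold). The neighbors TCL1A and TCL1B, of which TCL1A is an AKT coactivator of germinal center and earlier B cells, differed by 6.05 ± 0.066 and 6.52 ± 0.055. The aspartic protease gene NAPSA and its close copy NAPSB differed by 5.68 ± 0.084 and 6.74 ± 0.069. That the arrays of the lines did not overlap was a condition for a place among these genes, and is not a separate result. The 15 genes with the largest differences above 0 also held the calcium-activated cation channel TRPM4 (5.96 ± 0.051), the androgen-regulated mucin PARM1 (5.25 ± 0.052), the inhibitory sialic acid receptor SIGLEC10 (5.22 ± 0.051), the actin regulator EVL (5.20 ± 0.055), the germ cell gene GTSF1 (5.07 ± 0.052), MAGEA9B (5.005 ± 0.057) and the cold shock protein YBX3 (4.96 ± 0.052).

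On the other side, UCHL1, a ubiquitin hydrolase of neurons and germinal center B cells, measured 5.84, 6.02 and 6.09 in TMD8 cells, against 11.67, 11.83 and 12.003 in DoHH2 cells, a difference of -5.84 ± 0.055. JCHAIN, the chain that joins secreted IgM and IgA, measured 8.03, 8.16 and 8.30 in TMD8 cells, against 13.09, 13.14 and 13.26 in DoHH2 cells (-4.995 ± 0.057). SOCS2, an inhibitor of cytokine signaling and a target of STAT5, measured 6.66, 6.72 and 6.84 in TMD8 cells, against 11.23, 11.32 and 11.36 in DoHH2 cells (-4.58 ± 0.060). No overlap between the lines was a condition for these 3 genes too. The actin bundler FSCN1 (-4.56 ± 0.059), the growth factor binder IGFBP2 (-4.44 ± 0.058), the chemokine scavenger ACKR3 (-4.29 ± 0.053), the lysosomal protein LAMP5 (-4.97 ± 0.053), the carnitine synthesis enzyme BBOX1 (-4.82 ± 0.060), the neuronal filament INA (-4.16 ± 0.054), the sulfotransferase CHST15 (-4.01 ± 0.055), the steroid reductase AKR1C3 (-3.97 ± 0.055), LY6E (-3.89 ± 0.062), CXCL9, HLA-DRB1 and CD27 made up the rest of the 15 genes furthest below 0. AKR1C3 and AKR1C2 share much of their sequence, as do the HLA-DRB genes. In all, 34 genes were at least 16-fold higher and 12 at least 16-fold lower in TMD8 cells.

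**Figure D1:**
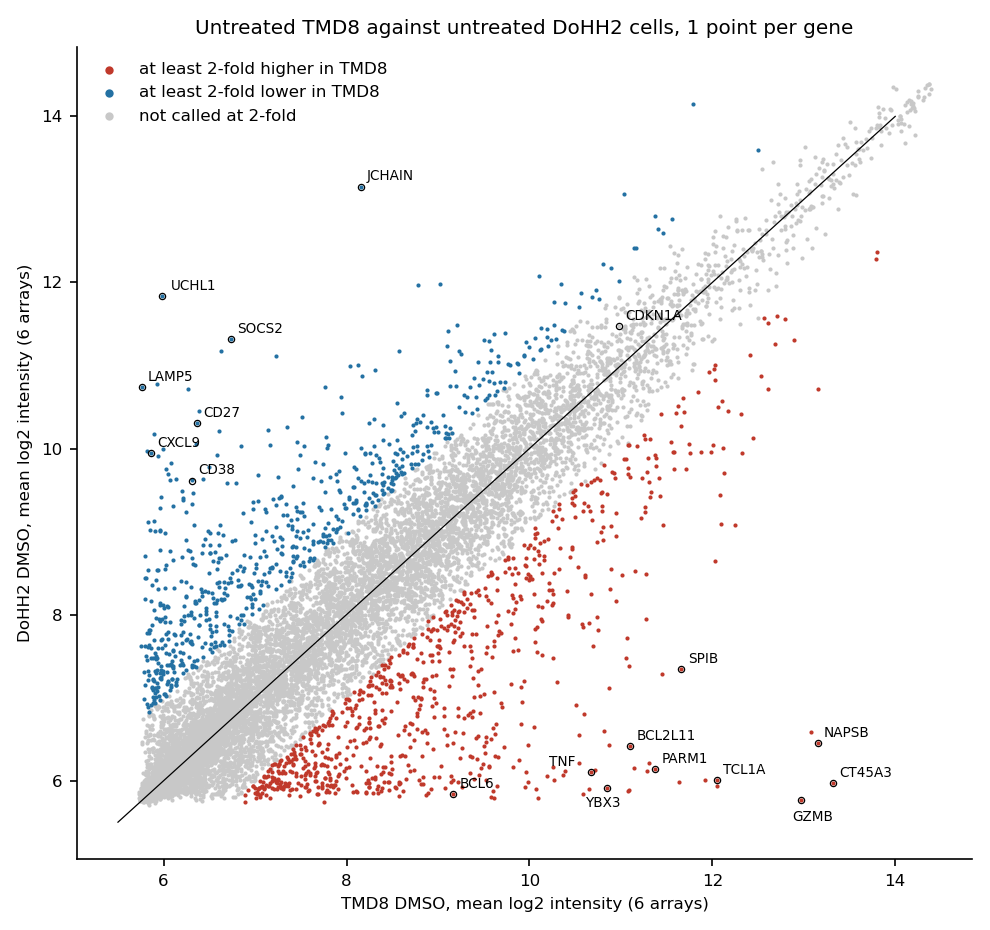
Mean log2 intensity of each gene over the 6 TMD8 DMSO arrays (x axis) and the 6 DoHH2 DMSO arrays (y axis), 1 point per gene read by its brightest probe, with the line of equal level. Colored points were called at 2-fold or more: 834 genes lie to the lower right (higher in TMD8 cells, led by CT45A3 and GZMB) and 710 to the upper left (lower in TMD8 cells, led by UCHL1 and JCHAIN).

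The labelled type of each line was checked against marker lists. Of 24 markers of the activated B-cell type that were measured, 19 were higher in TMD8 cells, 1 was lower and 4 were not called, with a median difference of 0.73. CYB5R2, a reductase used in cell-of-origin assays, measured 10.55, 10.71 and 10.92 in TMD8 cells, against 6.08, 6.13 and 6.16 in DoHH2 cells (4.61 ± 0.057). SPIB, an ETS transcription factor that ABC-DLBCL cells need, measured 11.38, 11.67 and 11.86 in TMD8 cells, against 7.20, 7.35 and 7.44 in DoHH2 cells (4.32 ± 0.067). Both genes separated the lines by more than 3 log2 units with no overlap. The AP-1 factor BATF (2.77 ± 0.057), the fucosyltransferase FUT8 (2.26 ± 0.088), RAB29 (1.99 ± 0.060), the phosphatase PTPN1 (1.98 ± 0.051), STAT3 (1.83 ± 0.057), the kinases PIM1 (1.61 ± 0.063) and PIM2 (1.12 ± 0.066), CD44 (1.45 ± 0.054), FOXP1 (1.15 ± 0.058) and the plasma cell and activation factor IRF4 (0.76 ± 0.059) were higher as well. IRF4 was well above the floor in both lines, at 10.97, 11.23 and 11.45 in TMD8 cells and 10.20, 10.39 and 10.55 in DoHH2 cells. The repressor ETV6 was the marker that was lower in TMD8 cells (-0.95 ± 0.051).

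Markers of the germinal center type split evenly: of 25 measured, 11 were higher and 11 lower in TMD8 cells, and the median difference was -0.015. BCL6, the repressor that defines the germinal center program, ran against the labels: it measured 9.13, 9.15 and 9.26 in TMD8 cells, against 5.81, 5.83 and 5.87 in DoHH2 cells (3.32 ± 0.048), near the floor in every DoHH2 array. LMO2, a partner of GATA and TAL1 factors that marks germinal center lymphomas, measured 9.52, 9.60 and 9.75 in TMD8 cells, against 6.41, 6.56 and 6.66 in DoHH2 cells (3.06 ± 0.057). TCL1A (6.05 ± 0.066), the transcription elongation factor ELL3 (2.99 ± 0.051), the G-protein regulator RGS13 (2.50 ± 0.051), SWAP70 (1.60 ± 0.048), IRAG2 (1.24 ± 0.063) and the confinement receptor P2RY8 (0.83 ± 0.070) were also higher in TMD8 cells. CD38, an ectoenzyme of germinal center and plasma cells, measured 6.12, 6.33 and 6.45 in TMD8 cells, against 9.50, 9.63 and 9.69 in DoHH2 cells (-3.31 ± 0.058). The membrane protease MME, known as CD10, measured 5.76, 5.92 and 5.9996 in TMD8 cells, against 7.97, 8.05 and 8.15 in DoHH2 cells (-2.15 ± 0.059). With these, the surrogate light chain gene VPREB3 (-2.20 ± 0.055), GCSAM (-2.01 ± 0.054), SSBP2 (-1.82 ± 0.048), ASB13 (-1.14 ± 0.054) and PAG1 (-0.92 ± 0.062) were lower in TMD8 cells. Most activated B-cell markers thus had the direction of the labels, while germinal center markers as a group had none. BCL6, LMO2 and TCL1A were higher in TMD8 cells, against the labels. A difference between 2 lines cannot tell which of them departs from its label. BCL6, ASB13, GCSAM, CD38, VPREB3 and several others were each read by 1 probe, so that a probe that fails in 1 line could not be seen here.

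Genes such as CYB5R2, ASB13 and MME, already counted above, belong to the clinical cell-of-origin assay. The assay gave the same split, which is no separate check of the marker lists. Of 8 measured genes of its activated B-cell arm, 5 were higher in TMD8 cells, none was lower and LIMD1, TNFRSF13B and CREB3L2 were not called. Of 7 genes of its germinal center arm, SERPINA9 (0.59 ± 0.061) and MYBL1 (0.28 ± 0.064) were higher, ASB13 and MME lower, and ITPKB, S1PR2 and MAML3 were near the floor in both lines and not called. MYBL1 was not called in the ITF-B controls alone (0.14). The 5 reference genes of the assay were closer between the lines, but 4 of them were lower in TMD8 cells, from -0.15 ± 0.047 for WDR55 to -0.59 ± 0.058 for TRIM56, and UBXN4 was not called (0.047 ± 0.060, 95% interval -0.075 to 0.17). On either chip alone or in the ITF-A controls alone 2 of the 5 were lower, and WDR55 was not called in any of these 3 subsets.

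**Figure D2:**
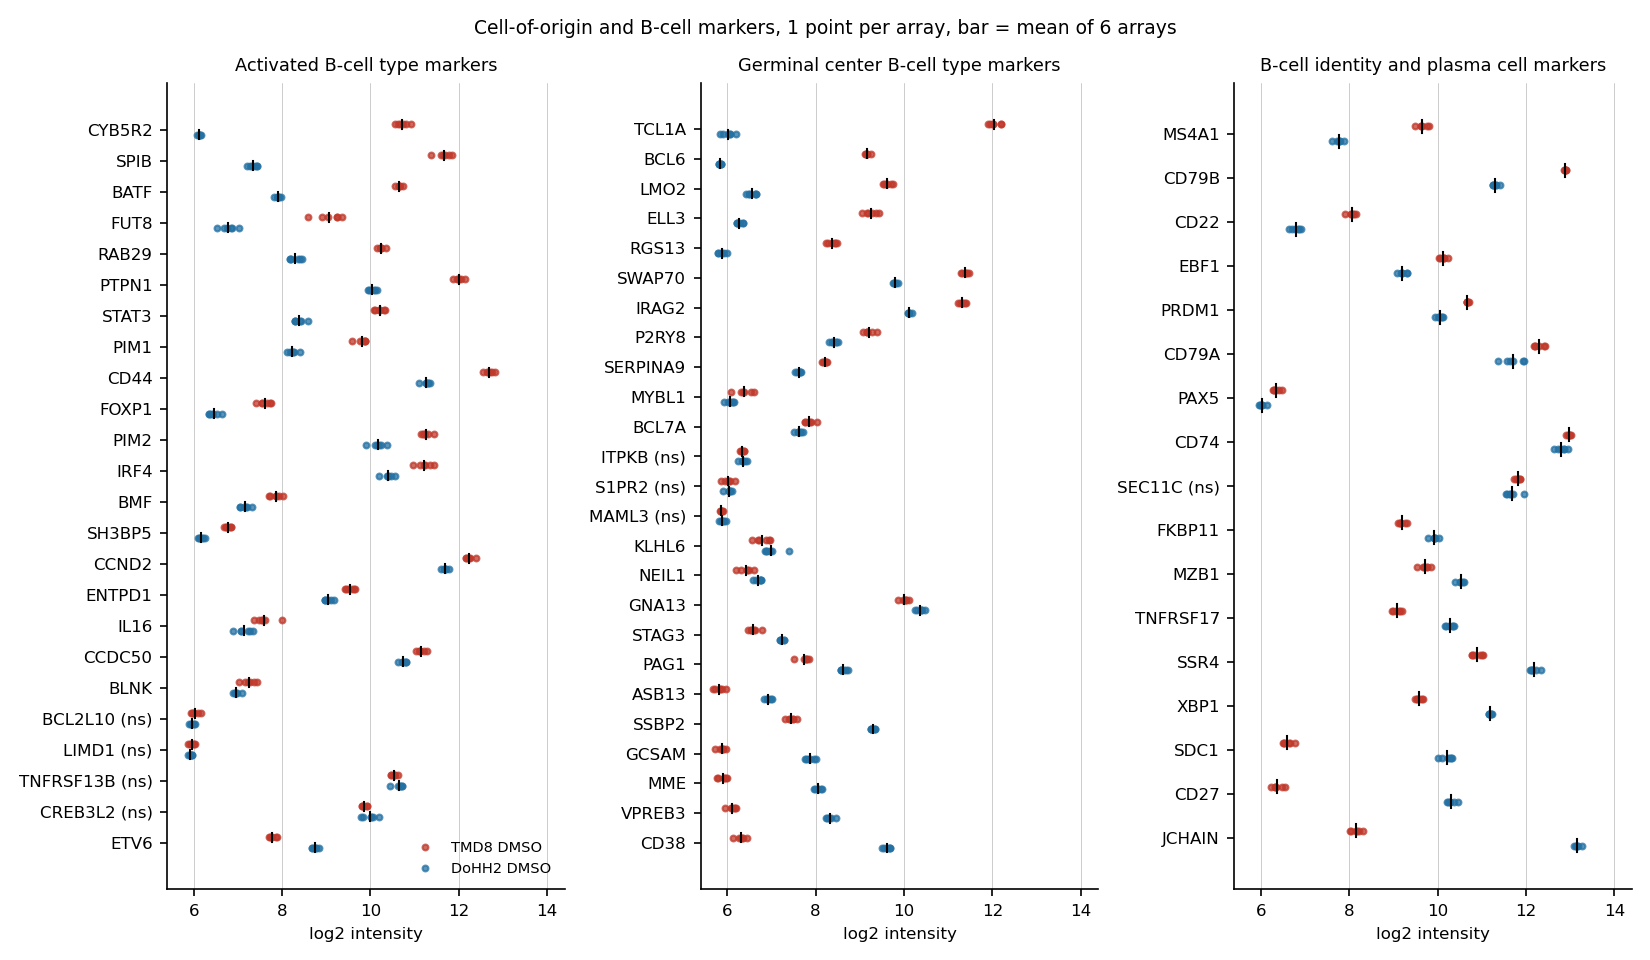
Log2 intensity of cell-of-origin, B-cell identity and plasma cell markers, 1 point per array, with 6 TMD8 DMSO arrays (red, upper row of each gene) and 6 DoHH2 DMSO arrays (blue, lower row) and a bar at each mean. Genes marked ns were not called. TMD8 arrays lie to the right for 19 of 24 activated B-cell type markers, while the 25 germinal center markers fall on both sides, with BCL6 near 9.2 in TMD8 cells and 5.8 in DoHH2 cells.

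All 7 measured B-cell identity genes were higher in TMD8 cells, with a median difference of 0.93. MS4A1, which encodes the antibody target CD20, measured 9.49, 9.63 and 9.81 in TMD8 cells, against 7.62, 7.77 and 7.88 in DoHH2 cells (1.89 ± 0.058). CD79B, a signaling chain of the B-cell receptor, measured 12.86, 12.89 and 12.91 in TMD8 cells, against 11.25, 11.29 and 11.41 in DoHH2 cells (1.60 ± 0.050). Its partner CD79A (0.59 ± 0.071), the inhibitory receptor CD22 (1.29 ± 0.062), the lineage factors EBF1 (0.93 ± 0.054) and PAX5 (0.33 ± 0.051) and the invariant chain CD74 (0.17 ± 0.053) were higher by less, and CD74 was not called without the array of DoHH2 ITF-B control 3 (0.15) or under median scaling (-0.069). PAX5, which holds B-cell identity, was read by a probe near the floor in both lines (6.28, 6.32 and 6.47 in TMD8 cells and 5.96, 6.01 and 6.13 in DoHH2 cells).

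Plasma cell genes ran the other way: 8 of 10 were lower in TMD8 cells and PRDM1, the master repressor BLIMP1, was higher (0.63 ± 0.061), with a median of -1.23. SDC1, the plasma cell proteoglycan CD138, measured 6.51, 6.58 and 6.76 in TMD8 cells, against 10.02, 10.26 and 10.32 in DoHH2 cells (-3.63 ± 0.065). CD27, a TNF receptor of memory B cells and plasma cells, measured 6.22, 6.33 and 6.53 in TMD8 cells, against 10.21, 10.28 and 10.45 in DoHH2 cells (-3.93 ± 0.058). XBP1, the transcription factor of the secretory program, was lower (-1.60 ± 0.051), with 9.50, 9.58 and 9.67 in TMD8 cells and 11.16, 11.19 and 11.23 in DoHH2 cells. Secretion and unfolded protein response genes had the direction of XBP1: of 25, 17 were lower and 3 higher in TMD8 cells, with a median of -0.47. They held the mannosidase-like EDEM1 (-1.76 ± 0.056), the neurotrophic factor MANF (-1.62 ± 0.050), the chaperone DNAJB9 (-1.44 ± 0.061) and the kinase EIF2AK3 (-1.38 ± 0.056), whereas the ligase SYVN1 (0.67 ± 0.047), SEC61B (0.46 ± 0.048) and SRP54 (0.28 ± 0.052) were higher. Of 4 immunoglobulin-related genes measured, VPREB3, IGLL1 (-2.37 ± 0.056) and JCHAIN were lower in TMD8 cells. The IGLL1 value came from its brightest probe, with means of 11.79 in TMD8 cells and 14.15 in DoHH2 cells. The other IGLL1 probes were near the floor in both lines, with differences of -0.16 and -0.11. Whether the brightest probe reads IGLL1 alone was not tested.

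Markers of other cell types were near the floor in both lines, apart from a few. Of 12 T and NK cell markers, GZMB was higher, and the interleukin receptor IL7R (-2.95 ± 0.062), NKG7 (-0.27 ± 0.047) and CD2 (-0.21 ± 0.056) were lower in TMD8 cells, CD2 not without the array of TMD8 ITF-A control 1 (-0.13). The T-cell receptor chain genes CD3D, CD3E and CD3G did not exceed 6.17 in any array. Over the whole list the mean level ran from 6.58 to 6.65 in TMD8 arrays and from 6.25 to 6.38 in DoHH2 arrays. The 9 myeloid markers had 1 higher (MPO, 0.36 ± 0.055) and 1 lower member (S100A8, -0.52 ± 0.056), with mean levels of 6.17 to 6.24 in TMD8 arrays and 6.14 to 6.22 in DoHH2 arrays. Of 7 epithelial and fibroblast markers, DCN (1.16 ± 0.050) and KRT19 (0.69 ± 0.053) were higher, and none of the 3 red cell markers was called.

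Genes of the proximal B-cell receptor pathway were mostly higher in TMD8 cells, 20 of 28 against 6 that were lower, with a median of 0.58. In this pathway the SRC kinase LYN phosphorylates CD79 chains, SYK binds them, and BTK and PLCG2 pass the signal on. SYK measured 11.39, 11.57 and 11.60 in TMD8 cells, against 9.90, 10.10 and 10.16 in DoHH2 cells (1.48 ± 0.057), and LYN 12.53, 12.61 and 12.69 in TMD8 cells, against 10.61, 10.72 and 10.83 in DoHH2 cells (1.91 ± 0.051). Neither overlapped between the lines. BTK, the target of ibrutinib, differed by 0.18 ± 0.058 (limma adjusted p = 0.0125), with 10.08, 10.35 and 10.43 in TMD8 cells and 10.10, 10.16 and 10.28 in DoHH2 cells, which overlap. This call of BTK was lost without the array of TMD8 ITF-B control 1 (0.16) and turned to -0.10, not called, under median scaling. The coreceptor CD72 (2.86 ± 0.053), the exchange factors RASGRP3 (2.08 ± 0.048) and VAV2 (1.79 ± 0.049), the phosphatase PTPN6 (2.07 ± 0.055), the adaptor GRB2 (1.37 ± 0.057), the lipid kinase PIK3CD (1.28 ± 0.061) and PLCG2 (1.07 ± 0.048) were higher. The adaptors SH3KBP1 (-2.46 ± 0.062) and LAT2 (-2.26 ± 0.051), the ligase CBL (-0.68 ± 0.050), the kinases BLK (-0.45 ± 0.052) and PRKCB (-0.31 ± 0.048) and the tetraspanin CD81 (-0.35 ± 0.053) were lower.

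The Toll-like receptor branch leaned the same way, with 13 of 19 genes higher and 4 lower (median 0.27). MYD88, the adaptor of these receptors, measured 8.81, 8.86 and 9.05 in TMD8 cells, against 8.18, 8.21 and 8.32 in DoHH2 cells (0.66 ± 0.049). TLR10 (2.56 ± 0.063), TLR9 (1.07 ± 0.057) and the transport protein UNC93B1 (1.12 ± 0.062) that brings nucleic acid sensors to endosomes were higher, as were IRF5 (1.33 ± 0.056) and the inhibitory pseudokinase IRAK3 (2.00 ± 0.052). IRAK1, the kinase that MYD88 recruits, was lower, with 9.93, 10.06 and 10.16 in TMD8 cells, against 10.81, 10.90 and 11.01 in DoHH2 cells (-0.84 ± 0.054).

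NF-κB subunits and regulators were mixed: 10 of 22 were higher and 6 lower in TMD8 cells, and the median was 0.025. The atypical IκB proteins BCL3 (2.34 ± 0.054) and NFKBIZ (1.56 ± 0.052), the subunits RELB (0.98 ± 0.048) and REL (0.74 ± 0.060) and the kinase MAP3K14 (0.80 ± 0.065) with its brake TRAF3 (0.95 ± 0.054) were higher, and the kinase CHUK (-0.65 ± 0.055) and NFKB2 (-0.50 ± 0.055) lower. NFKB1, which encodes p105 and p50, did not pass the test, at 11.52, 11.64 and 11.73 in TMD8 cells and 11.51, 11.62 and 11.67 in DoHH2 cells (0.032 ± 0.058, 95% interval -0.085 to 0.15). The feedback inhibitor NFKBIA did not pass either (0.0091 ± 0.048), and TNFAIP3, the deubiquitinase A20, was lower (-0.38 ± 0.068). With arrays scaled to a common median, 12 of the 22 were lower, among them NFKB1 (-0.25) and NFKBIA (-0.23).

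Of 28 NF-κB targets measured, 18 were higher and 9 lower in TMD8 cells, with a median of 0.64. TNF, the founding cytokine of its family, measured 10.52, 10.70 and 10.78 in TMD8 cells, against 5.98, 6.09 and 6.25 in DoHH2 cells (4.59 ± 0.063, 24.1-fold). LTA, which lies next to TNF on chromosome 6 and encodes lymphotoxin alpha, measured 9.35, 9.59 and 9.83 in TMD8 cells, against 6.42, 6.47 and 6.67 in DoHH2 cells (3.07 ± 0.064). LTB, on the other side of TNF, measured 8.55, 8.66 and 8.71 in TMD8 cells, against 6.49, 6.66 and 6.78 in DoHH2 cells (1.97 ± 0.049). The arrays of the lines did not overlap in any gene of this cluster, and the TMD8 level was the higher in each. BATF (2.77 ± 0.057), the costimulatory ligands CD86 (2.17 ± 0.050) and CD80 (0.94 ± 0.063), CD83 (2.01 ± 0.056), IL6 (1.36 ± 0.058), the caspase inhibitor CFLAR (1.43 ± 0.051), the phosphatase DUSP2 (1.31 ± 0.062) and the BCL2 relative BCL2A1 (1.12 ± 0.082) were higher too. The chemokine CCL3 measured 6.23, 6.31 and 6.397 in TMD8 cells, against 9.05, 9.34 and 9.55 in DoHH2 cells (-3.05 ± 0.060), although its probe may also read nearly identical copies. RGS1 (-2.15 ± 0.047), TRAF1 (-1.22 ± 0.057), SOD2 (-1.19 ± 0.058), TNFRSF9 (-0.64 ± 0.063), FAS (-0.51 ± 0.053) and ICAM1 (-0.44 ± 0.066) were lower with it. IL10, a cytokine that ABC-DLBCL cells secrete, did not pass the test, at 12.33, 12.49 and 12.64 in TMD8 cells and 12.39, 12.48 and 12.60 in DoHH2 cells (95% interval of the difference -0.11 to 0.12). Under median scaling this probe was called lower (-0.23), while a second IL10 probe, near the floor in DoHH2 cells, was higher, with means of 6.90 in TMD8 cells and 5.86 in DoHH2 cells (1.05 ± 0.050), so that no direction is given for IL10.

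Stretches before the start of 4 targets that carry a κB-like motif are shown because members on both sides of the comparison hold it. They were read from RefSeq promoter sequences (GRCh38.p14), 30 bases each in the direction of the gene, with the motif GGGNNTTNCC, or its reverse complement GGNAANNCCC, in capitals. LTB, IL6 and BATF were higher and TNFRSF9 lower in TMD8 cells.
LTB, chr6:31582492-31582521, - strand: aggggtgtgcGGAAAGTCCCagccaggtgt
IL6, chr7:22727117-22727146, + strand: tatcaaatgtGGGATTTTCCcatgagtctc
BATF, chr14:75522222-75522251, + strand: attctggctgGGGTTTTTCCctgcctgggc
TNFRSF9, chr1:7940894-7940923, - strand: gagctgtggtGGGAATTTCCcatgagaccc
A gene can have several promoter sequences (35116 for 27305 genes), and a match in any of them was counted. Searched on both strands over 250 bases, the motif was found in 9 of 25 measured targets with a sequence: 7 of 16 that were higher, 2 of 8 that were lower and in the 1 that was not called it was not found. In the first sequence of each gene, from which the stretches shown were taken, the higher targets with a match were IL6, LTB, EBI3 and BATF. The lower ones were FAS and TNFRSF9. Among all 27305 genes with a sequence, 6.14% held it. A match is a run of letters and not evidence of binding.

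The cytokine receptors that signal through JAK kinases and STAT factors gave 14 of 26 genes higher and 6 lower in TMD8 cells (median 0.28). STAT3 measured 10.09, 10.21 and 10.34 in TMD8 cells, against 8.29, 8.35 and 8.58 in DoHH2 cells (1.83 ± 0.057), and its 3 probes were all higher. JAK2 measured 8.55, 8.65 and 8.68 in TMD8 cells, against 6.49, 6.61 and 6.75 in DoHH2 cells (2.02 ± 0.053). The IL-10 receptor chain IL10RA (2.07 ± 0.061), IL21R (2.57 ± 0.055), IL4R (1.12 ± 0.051), the feedback inhibitor SOCS3 (1.61 ± 0.057) and PIM1 were higher. STAT5A measured 6.59, 6.74 and 6.93 in TMD8 cells, against 8.83, 8.89 and 8.95 in DoHH2 cells (-2.16 ± 0.053). IL6ST, the shared gp130 chain of the IL-6 family, measured 6.24, 6.27 and 6.44 in TMD8 cells, against 8.62, 8.65 and 8.81 in DoHH2 cells (-2.36 ± 0.056). STAT3 and STAT5A thus differed in opposite directions. The STAT5 target SOCS2 was lower in TMD8 cells, as was STAT5A, and a link between them was not tested.

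**Figure D3:**
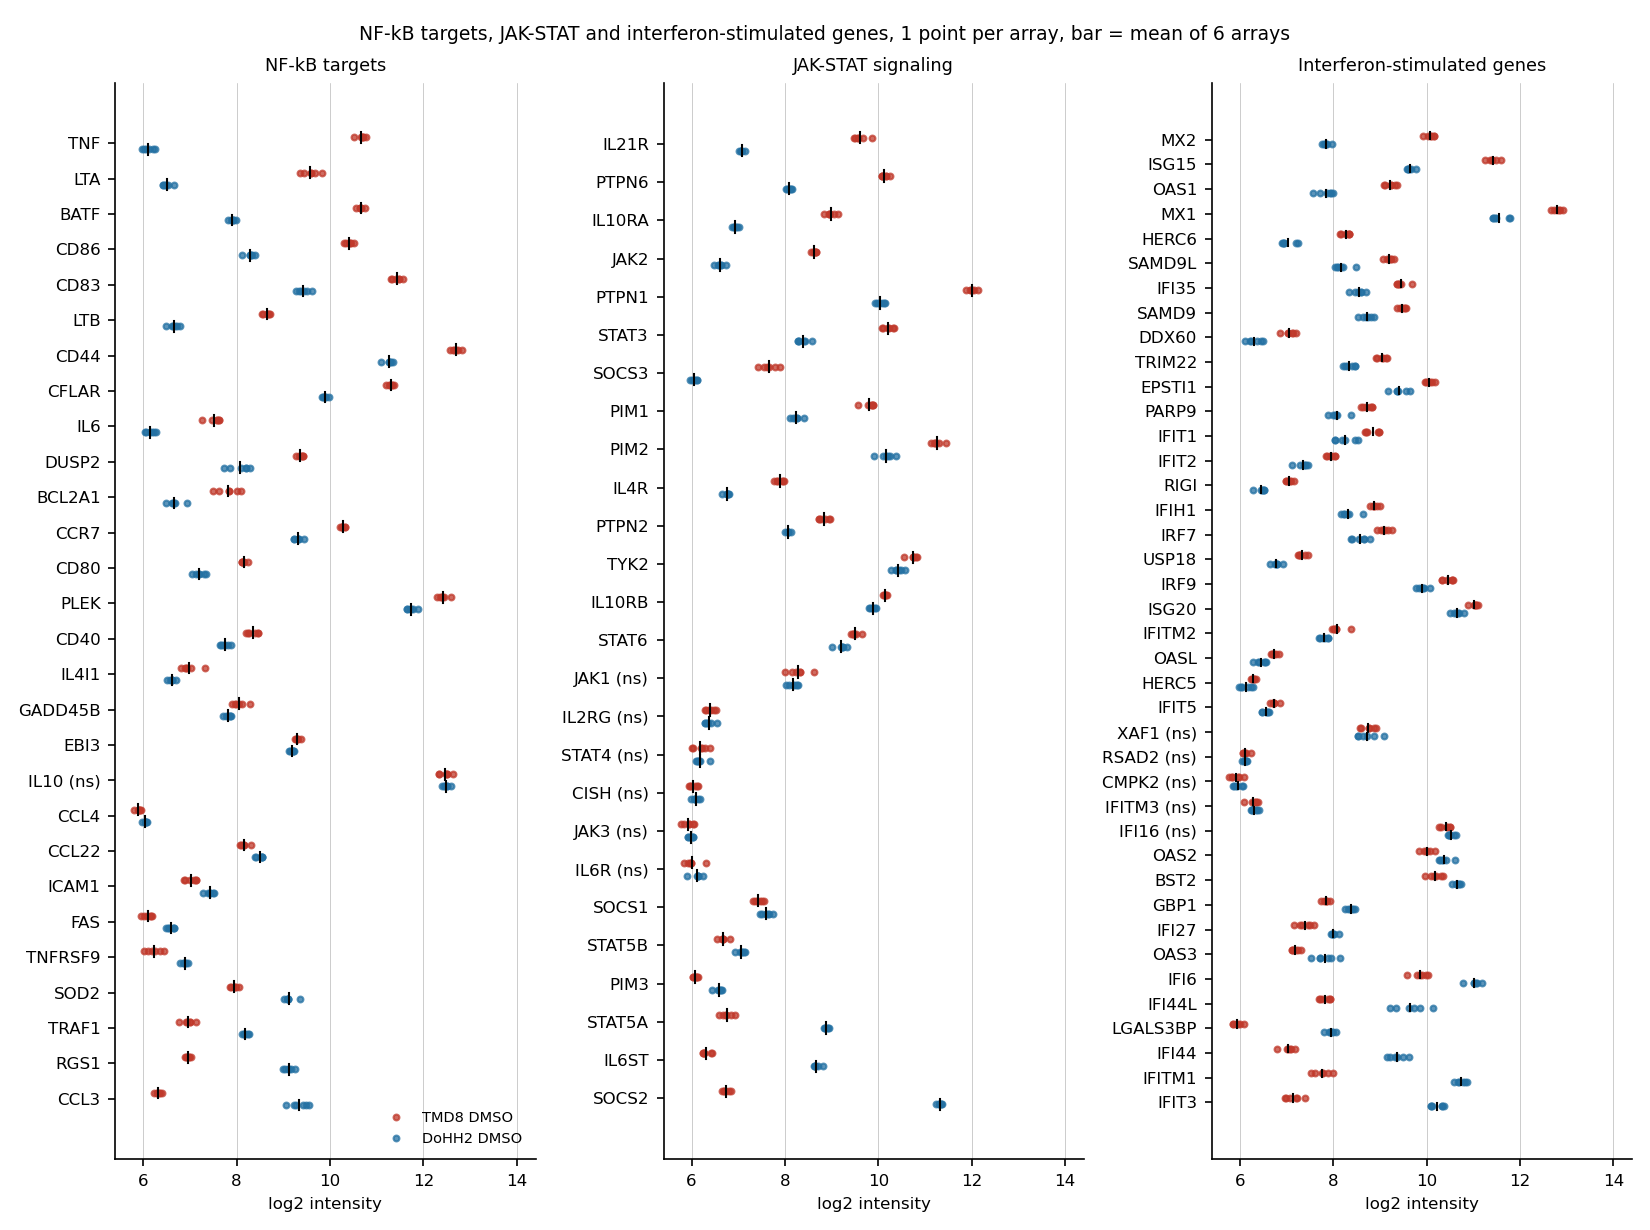
Log2 intensity of NF-κB targets, JAK-STAT genes and interferon-stimulated genes, 1 point per array, with 6 TMD8 DMSO arrays (red, upper row of each gene) and 6 DoHH2 DMSO arrays (blue, lower row) and a bar at each mean. In every panel some members lie to the right in TMD8 arrays (TNF, STAT3, MX2) and some in DoHH2 arrays (CCL3, SOCS2, IFIT3), with no overlap of the arrays for these 6 genes.

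Interferon-stimulated genes did not move as 1 group. Of 40 measured, 24 were higher and 11 lower in TMD8 cells, with a median of 0.36. The dynamin-like antiviral protein MX2 measured 9.92, 10.09 and 10.17 in TMD8 cells, against 7.75, 7.84 and 7.98 in DoHH2 cells (2.24 ± 0.056), and ISG15, a ubiquitin-like modifier, 11.26, 11.40 and 11.58 in TMD8 cells, against 9.58, 9.61 and 9.77 in DoHH2 cells (1.79 ± 0.059). OAS1 (1.46 ± 0.056), MX1 (1.28 ± 0.061), HERC6 (1.25 ± 0.058), SAMD9L (1.04 ± 0.065) and IRF7 (0.56 ± 0.059), the last with 1 of its 3 probes lower, were also higher. IFIT3, which binds IFIT1 in a complex that senses foreign RNA, measured 6.98, 7.14 and 7.40 in TMD8 cells, against 10.10, 10.22 and 10.37 in DoHH2 cells (-3.05 ± 0.062), whereas IFIT1 was higher in TMD8 cells (0.64 ± 0.067). IFITM1, a membrane protein that blocks viral entry, measured 7.53, 7.77 and 8.00 in TMD8 cells, against 10.59, 10.74 and 10.86 in DoHH2 cells (-2.92 ± 0.056). IFI44 (-2.30 ± 0.066), LGALS3BP (-2.02 ± 0.056), IFI44L (-1.76 ± 0.079) and IFI6 (-1.15 ± 0.076) were lower, and the OAS family was divided, with OAS2 (-0.34 ± 0.066) and OAS3 (-0.62 ± 0.069) lower.

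Members of both directions hold the same core of the interferon-stimulated response element, which is why 3 of each are shown, the first 3 higher and the last 3 lower in TMD8 cells. For each, 30 bases within the 250 before its start were taken from RefSeq (GRCh38.p14) in the direction of the gene, with GAAANNGAAA or its reverse complement TTTCNNTTTC in capitals. In ISG15 a pair of matches overlaps.
ISG15, chr1:1013380-1013409, + strand: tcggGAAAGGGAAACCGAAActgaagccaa
DDX60, chr4:168318786-168318815, - strand: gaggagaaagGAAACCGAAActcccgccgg
SAMD9, chr7:93118096-93118125, - strand: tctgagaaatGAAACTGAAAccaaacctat
IFI44, chr1:78649759-78649788, + strand: gggcacactgagTTTCAGTTTCctttctct
IFI44L, chr1:78620365-78620394, + strand: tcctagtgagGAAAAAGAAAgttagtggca
IFITM1, chr11:313990-314019, + strand: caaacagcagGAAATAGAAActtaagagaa
Searched on both strands over 250 bases, with a match in any promoter sequence of a gene counted, this motif was found in 23 of 32 measured interferon-stimulated genes with a sequence: in 11 of 17 that were higher, in 10 of 10 that were lower and in 2 of 5 that were not called. In the first sequence of each gene alone, fewer of the higher and of the uncalled genes held it, while the lower genes all did. It was found in 3.71% of all 27305 genes. DDX60 differed by 0.75 ± 0.060 and SAMD9 by 0.75 ± 0.054.

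Transcription factors of B cells leaned to TMD8, with 22 of 37 higher and 11 lower (median 0.37). Besides SPIB, BCL6, LMO2 and BATF, the inhibitor of E proteins ID2 (2.47 ± 0.061), AFF3 (2.29 ± 0.054), the repressor BCL11A (1.96 ± 0.059), TCF4 (1.77 ± 0.056), IKZF1 (1.45 ± 0.056) and POU2F2 (1.34 ± 0.067) were higher. MYB measured 9.41, 9.70 and 9.75 in TMD8 cells, against 10.995, 11.03 and 11.08 in DoHH2 cells (-1.37 ± 0.059). RUNX3 (-1.30 ± 0.080), the coactivator POU2AF1 (-0.997 ± 0.063), BACH2 (-0.996 ± 0.052), ID3 (-0.89 ± 0.056) and FOXO1 (-0.69 ± 0.055) were lower with it and with XBP1.

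Antigen presentation genes were lower in TMD8 cells in both classes. Of 20 class II genes, 13 were lower and 3 higher (median -0.56), and of 19 class I and peptide loading genes, 11 were lower and 1 higher (median -0.59). HLA-DRB1 measured 6.28, 6.37 and 6.52 in TMD8 cells, against 10.38, 10.46 and 10.50 in DoHH2 cells (-4.07 ± 0.052), but HLA genes vary between people, and whether the probe matches the alleles of each line was not tested. HLA-DRA, which hardly varies, was lower (-0.78 ± 0.057), with 12.59, 12.66 and 12.76 in TMD8 cells and 13.32, 13.44 and 13.53 in DoHH2 cells. CIITA, the coactivator that class II genes require, was lower as well (6.86, 6.93 and 7.14 in TMD8 cells and 7.69, 7.77 and 7.88 in DoHH2 cells, -0.81 ± 0.063). In class I, the peptide transporters TAP2 (-1.25 ± 0.058) and TAP1 (-1.23 ± 0.056), the light chain B2M (-0.62 ± 0.053) and the coactivator NLRC5 (-0.51 ± 0.051) were lower. The lysosomal reductase IFI30 went the opposite way, with 9.42, 9.59 and 9.78 in TMD8 cells, against 6.51, 6.64 and 6.73 in DoHH2 cells (2.99 ± 0.068).

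Among 42 surface antigens, 18 were higher and 14 lower (median 0.070). CD37, a tetraspanin and antibody target, measured 10.83, 11.03 and 11.38 in TMD8 cells, against 7.34, 7.47 and 7.63 in DoHH2 cells (3.56 ± 0.066). The Fc receptor-like genes FCRL5 (3.23 ± 0.061), FCRL3 (2.78 ± 0.054) and FCRL2 (2.70 ± 0.062) and CD5 (1.53 ± 0.056), which marks a subset of B cells, were higher. SLAMF1 (-3.15 ± 0.055), TNFRSF14 (-1.76 ± 0.055), CD69 (-1.75 ± 0.062), FCER2 (-1.40 ± 0.056), CD48 (-1.33 ± 0.057) and the survival receptor TNFRSF17, known as BCMA (-1.18 ± 0.064), were lower. Of 25 receptors for position and adhesion, 9 were higher and 6 lower. CXCR5, which draws B cells to follicles, measured 10.28, 10.37 and 10.46 in TMD8 cells, against 6.003, 6.07 and 6.17 in DoHH2 cells (4.34 ± 0.049), and its 3 probes were all higher. The integrins ITGAL (2.63 ± 0.060) and ITGAX (1.41 ± 0.055) were higher, and S1PR4 (-2.20 ± 0.068), GPR183 (-1.47 ± 0.072), ITGB1 (-1.32 ± 0.051) and ITGA4 (-1.13 ± 0.055) were lower.

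Of 25 cytokines and chemokines, 10 were higher (40%) and 12 lower (48%), with a median of -0.0086. A mean above 7 in either line was reached by 19 of them. Among all genes with a mean above 6.5 the shares were 36.9% and 39.6%, so that these counts are near that background. CXCL13, the ligand of CXCR5, measured 7.26, 7.37 and 7.50 in TMD8 cells, against 5.86, 5.95 and 6.16 in DoHH2 cells (1.40 ± 0.058). The interferon-induced chemokine CXCL9 measured 5.70, 5.89 and 6.01 in TMD8 cells, against 9.86, 9.95 and 10.02 in DoHH2 cells (-4.08 ± 0.058). CCL5 (-2.10 ± 0.057), IL15 (-1.68 ± 0.056) and CXCL10 (-1.31 ± 0.057) were lower in TMD8 cells as well.

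The BCL2 family sets the threshold for mitochondrial cell death. Of its 6 anti-apoptotic members measured, 4 were higher and 1 lower in TMD8 cells, and of 12 pro-apoptotic members, 6 were higher and 1 lower. BCL2 measured 9.98, 10.09 and 10.23 in TMD8 cells, against 8.01, 8.06 and 8.32 in DoHH2 cells (1.99 ± 0.058). A second BCL2 probe gave 1.95, and the other 2 were near the floor and not called. BCL2L1 (0.72 ± 0.060), MCL1 (0.71 ± 0.050) and BCL2A1 were higher and BCL2L2 lower (-1.37 ± 0.047). A second MCL1 probe, above the floor with means of 7.86 in TMD8 cells and 7.82 in DoHH2 cells, was not called (0.049 ± 0.068). BCL2L11, which encodes the BH3-only protein BIM, measured 10.99, 11.10 and 11.24 in TMD8 cells, against 6.29, 6.404 and 6.58 in DoHH2 cells (4.72 ± 0.063, 26.4-fold), and all 3 probes were higher. HRK (1.21 ± 0.063), BAX (0.87 ± 0.084) and BID (0.83 ± 0.056) were higher. The dimmer BAX probes were not called (0.15 ± 0.067 and -0.0033 ± 0.053). PMAIP1, known as NOXA, was lower, with 9.33, 9.42 and 9.63 in TMD8 cells, against 10.79, 11.06 and 11.35 in DoHH2 cells (-1.68 ± 0.067). Thus both sides of the family held higher members in TMD8 cells. Of 18 death receptor and caspase genes, 5 were higher and 7 lower, among them TNFRSF1A (-2.64 ± 0.059) and the TRAIL receptors TNFRSF10B (-1.21 ± 0.050) and TNFRSF10A (-0.88 ± 0.055).

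CDKN1A, which encodes the cell cycle inhibitor p21 and is a common target of HDAC inhibitors, measured 10.90, 10.98 and 11.09 in TMD8 cells, against 11.34, 11.48 and 11.61 in DoHH2 cells. It was lower in TMD8 cells, with a difference of -0.49 ± 0.051 (limma adjusted p = 9.93e-11), and the arrays did not overlap. CDKN1B, which encodes p27, was lower (-0.42 ± 0.064), CDKN2D (0.78 ± 0.054) and CDKN3 (0.33 ± 0.047) were higher, and CDKN2A and CDKN2B were near the floor in both lines and not called. The call of CDKN3 was lost under median scaling (0.052). Of 18 drivers of the step from G1 to S phase, 6 were higher and 11 lower in TMD8 cells (median -0.25). CDK6 measured 9.03, 9.07 and 9.20 in TMD8 cells, against 11.31, 11.43 and 11.45 in DoHH2 cells (-2.30 ± 0.052), and E2F2 9.20, 9.23 and 9.34 in TMD8 cells, against 11.01, 11.11 and 11.28 in DoHH2 cells (-1.89 ± 0.054). Cyclin D1, CCND1 (1.41 ± 0.051), the retinoblastoma gene RB1 (1.14 ± 0.055) and CCND2 (0.57 ± 0.050) were higher. MYC was lower, with a difference of -0.22 ± 0.069 (limma adjusted p = 0.0105). This call was lost in each control set alone, on the first chip alone, with a normexp offset of 16 in the background correction and without the array of TMD8 ITF-A control 1 (-0.19). In all, 7 of the 12 genes of the MYC network were lower, MYC included.

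Replication genes were lower in TMD8 cells in 23 of 40 cases and higher in 7 (median -0.19), led by MCM7 (-1.28 ± 0.052), RRM2 (-1.17 ± 0.062) and GINS2 (-1.14 ± 0.048), while MCM5 was higher (1.20 ± 0.060), and under median scaling 3 replication genes were higher. Mitosis genes had 14 of 30 members higher and 6 lower (median 0.065), such as NDC80 (0.77 ± 0.057) and AURKA (0.69 ± 0.052) on the high side and MAD2L1 (-0.77 ± 0.065) and CCNA2 (-0.73 ± 0.053) on the low side. Under median scaling this order turned round, with 7 mitosis genes higher and 16 lower, so that no direction is given for mitosis.

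Metabolic genes differed by pathway. Cholesterol synthesis was higher in TMD8 cells for 15 of 20 genes and lower for 2 (median 0.55). HMGCS1, which starts the pathway, measured 11.13, 11.26 and 11.58 in TMD8 cells, against 9.49, 9.57 and 9.81 in DoHH2 cells (1.67 ± 0.071). IDI1 (1.29 ± 0.072), MSMO1 (1.23 ± 0.064), NSDHL (1.11 ± 0.054) and SQLE (1.03 ± 0.054) followed, whereas the regulators SREBF1 (-0.90 ± 0.054) and INSIG1 (-0.26 ± 0.054) were lower. Serine and one-carbon metabolism was lower for 10 of 14 genes (median -0.40), among them the mitochondrial folate enzyme MTHFD1L (-2.21 ± 0.059), CBS (-1.73 ± 0.053) and PSPH (-1.65 ± 0.065). PHGDH, the entry enzyme of serine synthesis, measured 9.32, 9.48 and 9.75 in TMD8 cells, against 11.20, 11.30 and 11.39 in DoHH2 cells (-1.80 ± 0.052), while PSAT1 of the same pathway was higher (1.13 ± 0.057). Glycolysis had 4 of 20 genes higher and 11 lower, including ALDOC (1.21 ± 0.051) and SLC2A3 (-1.34 ± 0.054). Of 27 proteasome subunits 4 were higher and 14 lower, all but PSMB2 (-1.20 ± 0.060) by less than 2-fold, and under median scaling 2 were higher and 23 lower.

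Of 10 metallothioneins, small proteins that bind zinc and copper, 5 were higher and none lower in TMD8 cells. MT1G measured 9.43, 9.58 and 10.06 in TMD8 cells, against 6.81, 6.92 and 7.11 in DoHH2 cells (2.86 ± 0.082), and MT1H, MT1E, MT1F and MT1X were higher by 0.79 ± 0.062 to 2.02 ± 0.087, though probes of these close copies may share signal. Antioxidant genes had 6 of 26 members higher and 11 lower. Heme oxygenase HMOX1 (2.24 ± 0.061) and catalase, CAT (1.96 ± 0.052), were higher, and NQO1 measured 7.58, 7.74 and 7.83 in TMD8 cells, against 9.41, 9.62 and 9.82 in DoHH2 cells (-1.94 ± 0.056). NFE2L2, which drives NQO1 and other members, was lower (-1.15 ± 0.051), as were PRDX4 (-1.23 ± 0.058), TXN (-0.81 ± 0.052) and GSR (-0.44 ± 0.065). Whether NFE2L2 had a part in the differences of this list, which went both ways, was not tested.

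Of 18 histone deacetylase and sirtuin genes, 5 were higher and 5 lower in TMD8 cells (27.8% each), shares close to those of all genes, and on the second chip or in the ITF-B controls alone 3 were higher. HDAC1 measured 10.47, 10.53 and 10.68 in TMD8 cells, against 11.63, 11.72 and 11.79 in DoHH2 cells (-1.14 ± 0.049), and HDAC2 10.40, 10.50 and 10.56 in TMD8 cells, against 11.29, 11.39 and 11.58 in DoHH2 cells (-0.94 ± 0.054). Neither overlapped between the lines. HDAC3 (0.54 ± 0.056) and HDAC6 (0.52 ± 0.052), the deacetylase of tubulin, were higher. Of 12 acetyltransferases, 6 were higher and 1 lower, with 3 higher under median scaling, and with NCOA1 (1.33 ± 0.049) and KAT2B (1.26 ± 0.049) ahead of EP300 (0.30 ± 0.069), which was not called under median scaling or on the second chip alone. Among 27 enzymes of histone and DNA methylation, 5 were higher and 11 lower, against 3 and 17 under median scaling and 2 higher on the second chip alone. The demethylase KDM5B (1.496 ± 0.050) was higher, and the DNA methyltransferase DNMT3B measured 6.53, 6.56 and 6.75 in TMD8 cells, against 8.39, 8.72 and 8.80 in DoHH2 cells (-2.11 ± 0.058). EZH2, which is mutated in a share of germinal center lymphomas, was not called by its brightest probe (0.012 ± 0.056, 95% interval -0.10 to 0.13). Under median scaling that probe was called lower (-0.25), and a dimmer EZH2 probe was lower without that scaling (-0.30 ± 0.079). H2BC21, a histone gene outside the replication-dependent pattern, measured 9.31, 9.42 and 9.50 in TMD8 cells, against 6.32, 6.52 and 6.74 in DoHH2 cells (2.88 ± 0.076).

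**Figure D4:**
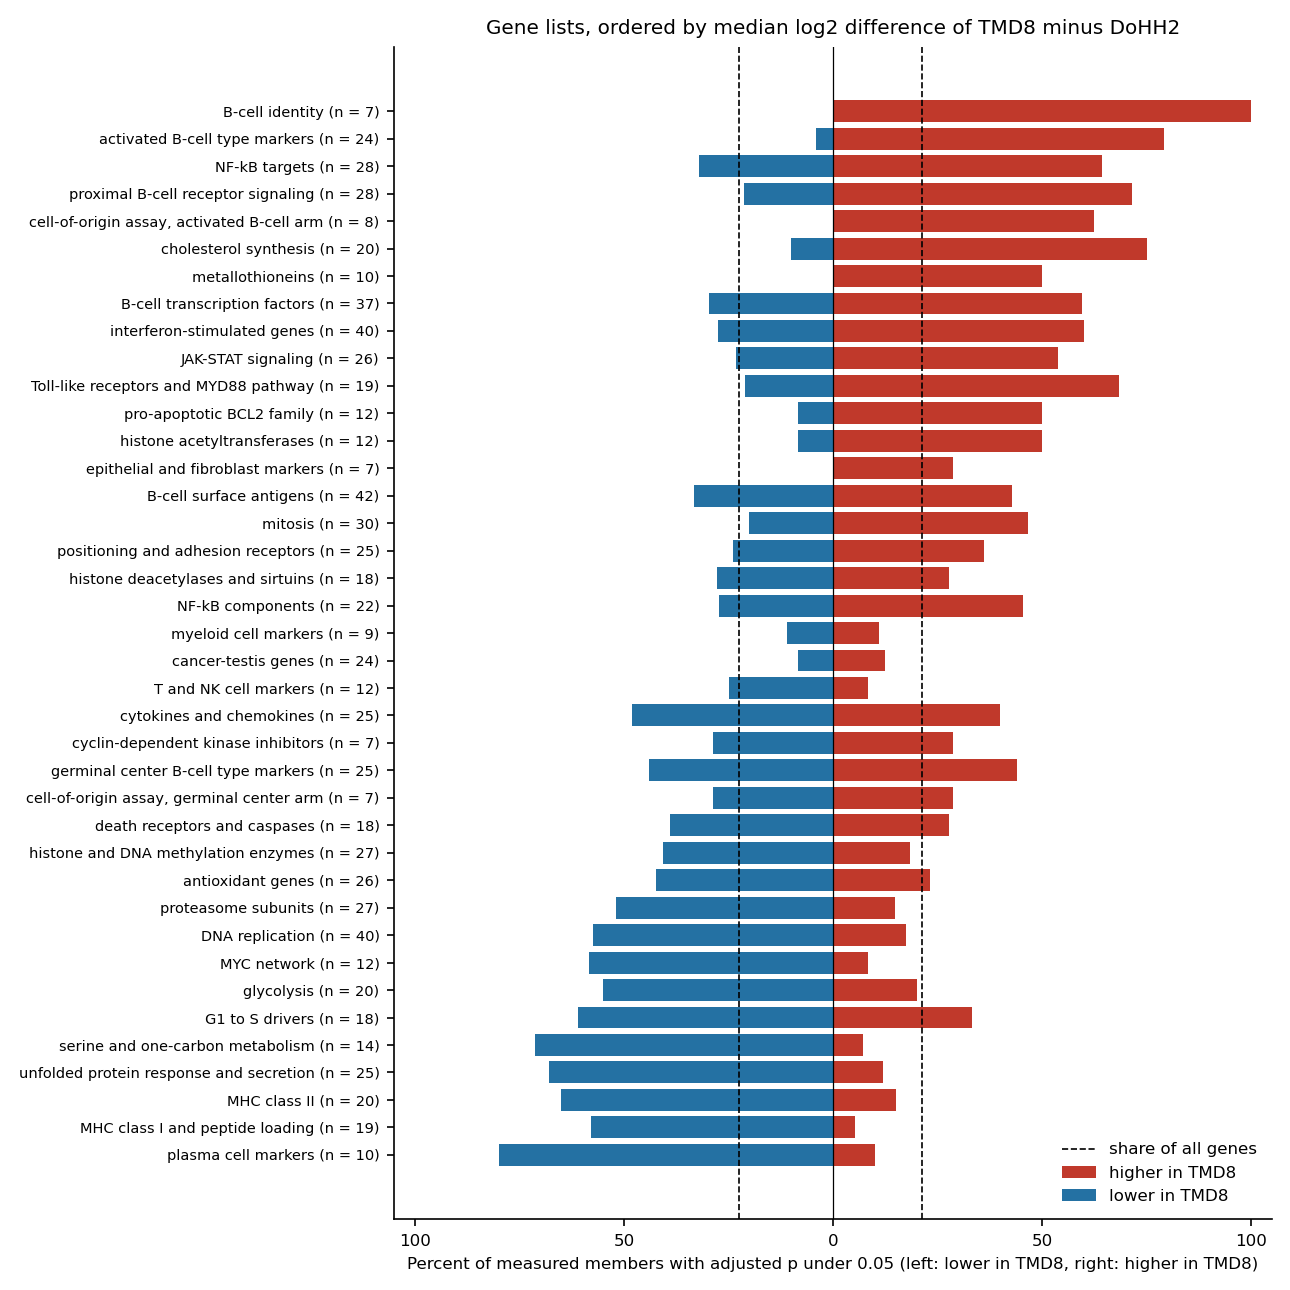
Share of measured members of each gene list that were higher (red, right) or lower (blue, left) in TMD8 DMSO cells than in DoHH2 DMSO cells at an adjusted p under 0.05, with dashed lines at the shares of all 20046 genes (21.2% and 22.6%). Among genes with a mean above 6.5 the shares were larger, at 36.9% higher and 39.6% lower, and these are not drawn. Lists are ordered by their median difference, from B-cell identity genes (7 of 7 higher) to plasma cell markers (8 of 10 lower).

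Differences also followed position on the chromosomes, a pattern that was looked for after the values had been seen. The 9538 genes with a mean level above 6.5 and a place in RefSeq were put in order, and medians were taken over windows of 40 neighbors. Of all 9556 genes with such a level, 36.9% were higher and 39.6% lower in TMD8 cells. On chromosome 7, 85 of 472 genes were higher and 315 (66.7%) lower, with a median of -0.33. On chromosome 18, 89 of 133 genes (66.9%) were higher (median 0.37), and on chromosome 19, 400 of 673 (59.4%, median 0.30). Most of the 226 windows had medians near 0, with the 10th percentile at -0.30 and the 90th at 0.24.

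The window with the largest median ran from PRPF31 to TRAPPC2B at the end of chromosome 19, where 37 of 40 genes were higher and 1 lower in TMD8 cells (median 1.34). It held the ribosomal protein RPL28 (1.69), the brain kinase BRSK1 (3.07), the tRNA splicing subunit TSEN34 (1.90), the deadenylase subunit CNOT3 (1.504) and zinc finger genes such as ZNF580 (2.09) and ZNF264 (1.47). Nearby, from BAX to NAPSB, 38 of 40 were higher and none lower (median 0.80). At the other extreme, 38 of 40 genes from GPATCH3 to RBBP4 on chromosome 1 were lower (median -0.84), and the windows on either side, from LUZP1 to GPN2 and from YARS1 to RRAGC, had medians of -0.72 and -0.71. Windows on chromosome 6 from CDC40 to EPB41L2 (-0.61), on chromosome 11 from FAM76B to BUD13 (-0.56), from ZNF876P to MRFAP1L2 on chromosome 4 (-0.55) and from RPL23AP53 to BIN3-IT1 on chromosome 8 (-0.56) were also below -0.5, and one on chromosome 9 from RIGI to TMEM8B was above 0.5 (0.52). DNA copy number was not measured, and its part in these shifts was not tested.

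Several genes named above lie in these windows. HDAC1 is among the 40 genes from GPATCH3 to RBBP4 and HDAC2 among those from CDC40 to EPB41L2, where 38 and 30 of the 40 genes were lower. BAX, CD37 and NAPSB lie in the window with 38 higher genes, PSMB2 in that from YARS1 to RRAGC, and RPA2 (-0.95 ± 0.052) in the same window as HDAC1. BCL2 and TCF4 share a window on chromosome 18 with a median of 0.31, from which both stand out. For BCL2L11, TNF and SDC1, the windows had medians of 0.0066, 0.14 and 0.0051.

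**Figure D5:**
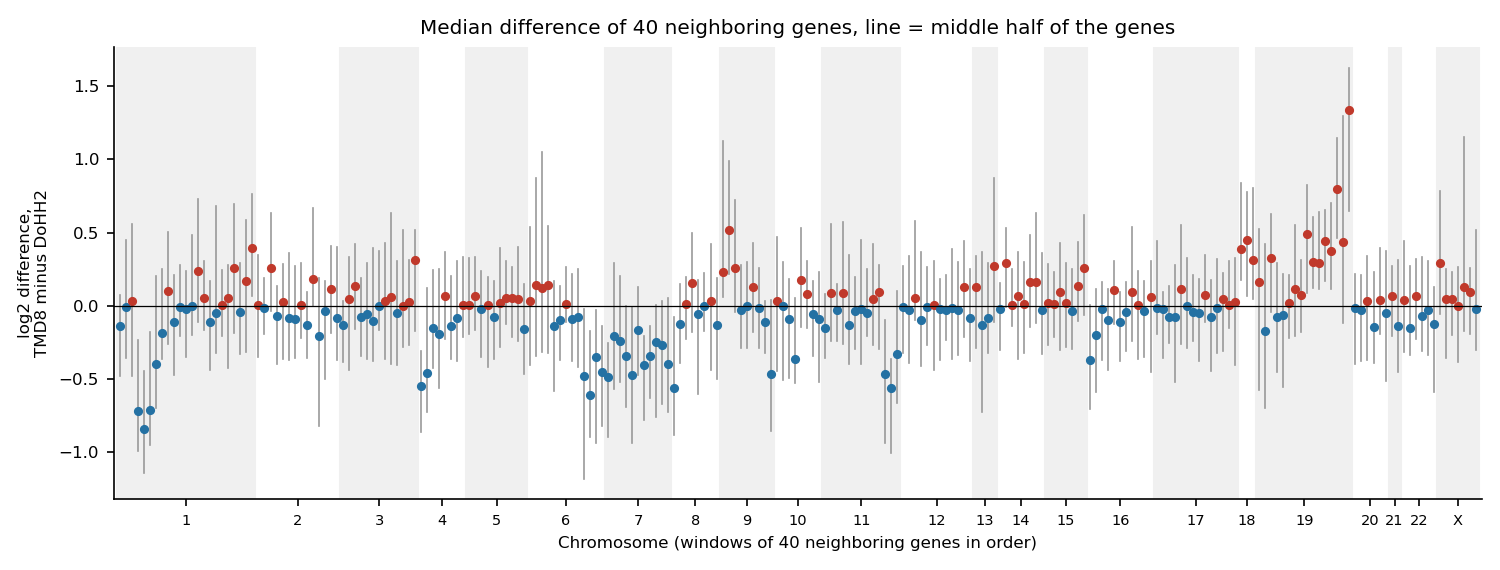
Median log2 difference (TMD8 minus DoHH2) of windows of 40 neighboring genes, in chromosome order on the x axis, for genes with a mean level above 6.5, with a line over the middle 50% of the genes of each window. Medians above 0 are red and below 0 blue. The end of chromosome 19 stands highest (1.34), a stretch of chromosome 1 lowest (-0.84), and chromosome 7 lies mostly below 0.

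The line difference was read again in the 12 arrays of inhibitor-treated cells, which share no array with the DMSO cells. Of 2191 probes that differed at least 2-fold in DMSO cells, 2083 (95.1%) were called with the same direction in treated cells, 38 with the opposite one and 70 were not called. In treated cells 7062 probes (15%) were higher and 7446 (15.8%) lower in TMD8 cells. The line difference itself was larger in treated than in DMSO cells for 5021 probes (10.6%) and smaller for 4696 (9.94%), counting sign. BCL6 differed by 4.09 in treated cells and 3.32 in DMSO cells, JCHAIN by -5.30 and -4.995, and BCL2 by 0.89 and 1.99. The difference in CDKN1A was -0.87 in treated cells and -0.49 in DMSO cells. Of the genes that differed at least 2-fold in DMSO cells, 1473 kept a called direction and 25 were called in the opposite one, 18 of them higher in TMD8 cells in DMSO. These 25 held the NF-κB genes DUSP2 (-2.08 in treated and 1.31 in DMSO cells), CD83 (-1.25 and 2.01), NFKBIZ (-0.41 and 1.56) and MAP3K8 (-0.85 and 1.11), and the interferon-stimulated genes MX1 (-0.94 and 1.28), ISG15 (-0.87 and 1.79) and OAS1 (-0.30 and 1.46). They were named after their values were seen. SYK, which was higher in TMD8 cells in DMSO, differed by 0.042 in treated cells (limma adjusted p = 0.7).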

How the data were processed

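Total RNA was measured on 24 Illumina HumanHT-12 v4 arrays. Both raw and processed values were deposited for each array: the intensity of each probe, not normalized, and log2 values that the authors made by quantile normalization, and their methods name ComBat for batches and limma for tests. Intensities ran from 70.3 to 26122, with array medians of 93.2 to 110.8 in TMD8 and 102.1 to 108.6 in DoHH2 DMSO arrays. Detection p-values and control probes were not used here.

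Intensities were background-corrected (normexp, offset 50), quantile normalized and taken to log2 with limma 3.58.1 in R 4.3.3. 1 model over all 24 arrays held 8 groups and the chip, with Benjamini-Hochberg adjustment over 47231 probes and a threshold of 0.05. Probes were named through the platform annotation (30113 with 1 gene), and a gene was read by its probe with the highest mean. The text names the 15 genes with the largest differences in each direction among called genes whose arrays did not overlap between the lines. It also names up to 4 per direction of 45 lists, and some lists in full. Members and lists were chosen with earlier results of these data known. Promoters came from RefSeq (GRCh38.p14), whereas the array annotation is of HG19. On simulated data with the real means, limma called 32 of 50 probes changed by 0.25 log2 units, 47 of 50 changed by 0.5 and all 50 changed by 1, beside 7 unchanged probes. All changed probes had a mean above 7, so that these shares do not describe probes near the floor. Far fewer probes were changed there than were called in the data. The number of arrays limits the precision. Alternatives were other corrections, scalings, chips, blocks, control sets and left-out arrays.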

Additional observations from a re-analysis of the deposited data

Results flagged for a closer look

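For each of 275 named genes, the 6 arrays of a line were tested for an array that lay far from the others, by the gap to its nearest neighbor over the whole range. This share was above Dixon's 95% critical value in 35 of 550 groups, where chance alone gives a share of about 0.05. The ranges themselves were small, at most 0.50 on the log2 scale, and the array of DoHH2 ITF-A control 1 held 9 of the 35. The gap over the range is given in parentheses, with the side on which the array lay. On the array of TMD8 ITF-A control 1, this held for B2M (low, 0.687), ID2 (low, 0.696), SYK (low, 0.662) and TRPM4 (high, 0.803). The array of TMD8 ITF-A control 2 stood apart for INA (high, 0.676), PIM1 (low, 0.637) and PRDX4 (high, 0.702). For TMD8 ITF-A control 3, the genes were BCL6 (high, 0.728) and MYB (low, 0.631). TMD8 ITF-B control 1 stood apart for DCN (high, 0.664). On the array of TMD8 ITF-B control 2, this held for BTK (low, 0.746), CD80 (high, 0.634) and PAG1 (low, 0.647). The array of TMD8 ITF-B control 3 stood apart for LAT2 (high, 0.633). For DoHH2 ITF-A control 1, the genes were BCL2 (high, 0.669), CAT (low, 0.695), CDK6 (low, 0.643), DNMT3B (low, 0.637), HRK (high, 0.718), POU2F2 (low, 0.626), PRDX4 (high, 0.782), SRP54 (low, 0.796) and TCF4 (low, 0.676). In DoHH2 ITF-A control 2, these were BACH2 (low, 0.743), CT45A1 (low, 0.847) and IL4R (low, 0.741). On the array of DoHH2 ITF-A control 3, this held for AFF3 (low, 0.693) and MANF (low, 0.809). The array of DoHH2 ITF-B control 1 stood apart for ID2 (low, 0.626). For DoHH2 ITF-B control 2, the genes were HMOX1 (low, 0.647), ID3 (high, 0.905) and IRAG2 (high, 0.639). In DoHH2 ITF-B control 3, these were CD44 (low, 0.683), CD72 (high, 0.634) and SOD2 (high, 0.713).

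The line difference itself differed between treated and DMSO cells for 9717 probes by the interaction term of the limma model, 5021 with a larger and 4696 with a smaller signed difference in treated cells.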

How the results depend on the processing

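Probe counts of the line difference lay within 1.5 times the values given above under the other background corrections, the authors' log2 values, the dim-probe filter, both chips alone, chip correction by ComBat, array weights and random blocks, with these exceptions. With a normexp offset of 16, 1545 probes were at least 2-fold lower, and with median scaling 1544. Under median scaling BTK (-0.10), CD74 (-0.069) and SRP54 (-0.0092) had negative differences and were no longer called, while EZH2 (-0.25), IL10 (-0.23), NFKB1 (-0.25), NFKBIA (-0.23) and UBXN4 (-0.24), which had not been called, were called lower. It moved list counts as well, to 3 acetyltransferases higher in place of 6, 17 class I genes lower in place of 11, 3 death receptor and caspase genes higher in place of 5 and 4 cholesterol genes lower in place of 2. With the mean of all probes of a gene, 6 class II genes were higher in place of 3. The probes whose line difference differed between the control sets numbered 7 with ComBat and 17 on chip 2 alone. Calls between the sets within TMD8 cells numbered 29 with ComBat, 0 on chip 1 and 7 on chip 2, and within DoHH2 cells 0 without the chip term or without background correction and 2 on chip 2. The difference between treated and DMSO cells was called for 3216 higher and 3019 lower probes on chip 1 alone and for 3267 and 3111 on chip 2 alone, each with fewer arrays. The cause of the other changes was not tested.

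With each array left out in turn, 6695 to 6997 probes were higher and 7575 to 7856 lower, and 1174 to 1189 were at least 2-fold higher and 1009 to 1019 at least 2-fold lower. In the ITF-A controls these ranges were 5460 to 6055 higher and 6137 to 6870 lower, and in the ITF-B controls 5366 to 5924 and 6064 to 6712.

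Experiment numbers were used as a replicate block in another fit, which called 7142 probes higher and 8000 lower in TMD8 cells. Deviations of same-numbered arrays correlated at -0.22 to 0.034 between the lines in the ITF-A controls and 0.030 to 0.081 in the ITF-B controls. Between the ITF-A and ITF-B controls of a number they correlated at -0.0099 to 0.24 within TMD8 cells (mean 0.12, with 2 of 3 pairs over 0.1). Within DoHH2 cells they correlated at -0.093 to 0.13 (1 pair over 0.1). Deviations within a group cancel out, so that the mean for other numbers (-0.059 in TMD8 cells) follows from the same-number mean and is no comparison. Same-numbered arrays of a line also lay on the same chip, for which the deviations were not corrected. Whether such arrays share a culture was not tested. Not every pair was over 0.1, and so few pairs cannot decide whether the numbers pair the arrays. The main fit holds no such block.

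Of the gene values under these settings, 7660 of 7700 stayed on the same side of the threshold with no called direction reversed. A change of sign between values that were not called was not counted. The number of arrays limits the precision, and without detection p-values a low level cannot be told from background.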

Other observations

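Genes of the germ line that tumors can express were near the floor in both lines for most of 24 listed cancer-testis genes, of which 3 were higher and 2 lower in TMD8 cells. The list left out the CT45A family and MAGEA9B, which had means of 11.15 in TMD8 and 6.15 in DoHH2 cells. PRAME, an adaptor of a ubiquitin ligase, measured 9.99, 10.02 and 10.19 in TMD8 cells, against 6.47, 6.63 and 6.81 in DoHH2 cells (3.43 ± 0.055), and MAGEB1 8.34, 8.38 and 8.502 in TMD8 cells, against 5.998, 6.10 and 6.19 in DoHH2 cells (2.31 ± 0.052). Neither overlapped between the lines.

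Around CDKN2A on chromosome 9, 3 of 15 measured genes were higher and 1 was lower in TMD8 cells. CDKN2A, its neighbor CDKN2B and the methionine salvage gene MTAP stayed between 5.83 and 6.24 in all 12 arrays, near the floor in both lines, while KLHL9 of the same stretch was well above it, at a median of 9.13 in TMD8 cells and 9.28 in DoHH2 cells.

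Of 20 genes that the study's text names and that were measured, 10 were higher and 8 lower in TMD8 cells in DMSO. CCND2, the cyclin D2 gene, differed by -1.29 in treated cells and 0.57 in DMSO cells, NFKB1 by -1.10 and 0.032, MYC by -1.20 and -0.22, and BCL2L1 by -0.33 and 0.72. Outside the lists, the phosphatase DUSP5 (-0.47 in treated and 2.65 in DMSO cells), FAM43A (-0.17 and 2.74) and the adhesion molecule CEACAM1 (-0.68 and 1.92) were among the genes whose line difference had opposite signs in treated and DMSO cells, chosen after their values were seen.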
